A study of Drosophila mojavensis with 172 samples.

Results

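Pupariation, the hardening of the last larval cuticle into the puparium, was examined in Drosophila mojavensis, a desert fly that breeds in rotting cactus. Every array of early pupae (EP) was set against every array of third-instar larvae (L3). A change at pupariation here means the difference between these stages, whatever the hour within each. The stage of each array was taken from its title, and 29 of the 172 arrays of the study carry these stages. The flies were wild-type and came from Punta Prieta in Baja California (stock PP08) and from Las Bocas in Sonora (stock LB09). Each population was raised as larvae on laboratory medium prepared from organ pipe or from agria cactus, which gives 4 series of population and diet. The 14 arrays of early pupae comprised 4 of Punta Prieta on organ pipe, 3 of Punta Prieta on agria, 3 of Las Bocas on organ pipe and 4 of Las Bocas on agria. The 15 arrays of third-instar larvae comprised 1 of Punta Prieta on organ pipe, 5 of Punta Prieta on agria, 4 of Las Bocas on organ pipe and 5 of Las Bocas on agria. The labels give neither the sex of larvae and pupae, nor the hour within a stage, nor how many animals an RNA sample held. The labels name animals and no dissected tissue, and in such bulk RNA fewer cells of a type and less RNA per cell cannot be told apart.

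In Drosophila, pupariation is set off by a pulse of the steroid hormone ecdysone at the end of the last instar. Feeding stops, the larval cuticle contracts and hardens into the puparium, and the epidermis then lays down a pupal cuticle. Larval tissues such as the midgut and salivary glands are broken down, while imaginal discs grow out into the adult body. Each array gave 1 log2 signal for each of 14528 transcripts, named by transcript IDs that the data do not pair with gene names. None of the IDs matched the gene table at hand (0 matched), so no gene function is attached to a transcript here, and the stage labels could not be checked against marker genes by name.

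Stage labels were instead checked by placing each array on a line that runs from 0, the mean of third-instar larvae, to 1, the mean of early pupae. For each array these means were taken over the other 3 series, using transcripts whose means lie 1 log2 unit or more apart, of which there are 1532 when all 4 series are averaged. All early pupae lay above all third-instar larvae. Early pupae had positions of 0.717 to 1.18, with a median of 1.02, and third-instar larvae had positions of -0.139 to 0.467, with a median of 0.00338. The array nearest to the opposite stage was replicate 2 of Las Bocas larvae on organ pipe, at 0.467. Among the other 3 larval arrays of that series, replicate 4 stood at 0.262, replicate 3 at 0.231 and replicate 1 at -0.081, so the series was spread more widely (SD 0.226, n = 4) than Punta Prieta larvae on agria (SD 0.0362, n = 5). Replicate 2 also had the lowest spread of log2 signals of the 29 arrays, with an SD of 1.31 against a range of 1.34 to 1.60 in the other larval arrays. After all arrays were scaled to 1 SD its position was 0.463.

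**Figure D1:**
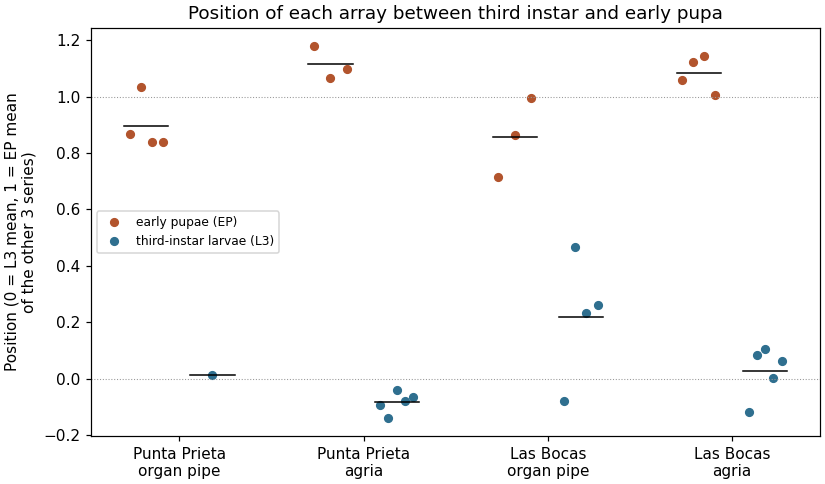
Position of each array (points) between the third-instar mean (0) and the early pupal mean (1) of the other 3 series, with early pupae left of third-instar larvae in each series and lines at the group means. Early pupae lie between 0.717 and 1.18 and larvae between -0.139 and 0.467.

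Array medians were 11.18 to 11.29 in early pupae and 11.14 to 11.31 in third-instar larvae, and the SD of an array's signals was 1.37 to 1.51 and 1.31 to 1.60 in the same order of stages. No pair of arrays held identical values. Scanner files were not used here, so saturation and background were not read.

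In early pupae, relative to third-instar larvae, 871 transcripts rose and 754 fell, each by 1 log2 unit or more and with a limma adjusted p under 0.05. A difference of 1 log2 unit is a factor of 2 in signal. Those that rose are 6% and those that fell 5.19% of all transcripts tested. At that adjusted p with no minimum size, 5850 transcripts (40.3%) differed, 3194 of them higher and 2656 lower in early pupae. The median change over all transcripts was -0.03. Large falls outnumbered large rises. Of the transcripts that fell, 234 (31%) fell by at least 2 log2 units, 91 by at least 3 and 26 by at least 4. Of those that rose, 149 (17.1%) rose by at least 2, 37 by at least 3 and 12 by at least 4. A stricter limma test, against a change of 1 log2 unit in place of 0, called 254 higher and 323 lower, so that the balance turned.

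The 2 transcripts that rose most lay below the lowest array median in every larva and among the brightest signals in every pupa. FBtr0165685 had 14.91 at the lowest, 15.41 at the median and 15.90 at the highest in the 14 arrays of early pupae, against 9.18, 9.84 and 10.55 in the 15 arrays of larvae. Its groups were separated by 4.36 log2 units, from the lowest pupa to the highest larva, the widest such gap among the transcripts that rose. Its change was 5.63 (SE 0.13, limma adjusted p = 2.12e-24), with 6.14 in Punta Prieta on agria and 5.02 in Punta Prieta on organ pipe at the ends of the range over the 4 series. FBtr0164349 had 14.63, 15.37 and 15.68 in early pupae, against 9.65, 10.03 and 10.55 in larvae, a change of 5.28 (SE 0.11, limma adjusted p = 1.43e-24). Both were low again in later stages. Stage means, which weigh the series equally, were for FBtr0165685 10.43 in late pupae and 9.16 to 9.30 at the 7 adult ages, and for FBtr0164349 10.60 in late pupae and 9.44 to 9.59 in adults.

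The 2 transcripts that fell most were among the brightest of larvae. FBtr0171495 had 8.65 at the lowest, 8.89 at the median and 9.41 at the highest in early pupae, against 12.20, 15.17 and 15.47 in larvae, and its groups were separated by 2.79 log2 units, the widest gap among the transcripts that fell. Its change was -6.11 (SE 0.21, limma adjusted p = 6.66e-20). FBtr0170671 had 9.47, 9.78 and 10.75 in early pupae, against 12.09, 15.27 and 15.44 in larvae, a change of -5.17 (SE 0.23, limma adjusted p = 6.81e-17). In both, the lowest larva was replicate 2 of Las Bocas on organ pipe, the array nearest to the pupae by position. Its 12.20 for FBtr0171495 compares with 14.86 to 15.14 in the other 3 larval arrays of its series. Its 12.09 for FBtr0170671 compares with 15.34, 14.98 and 13.97 in those arrays, so replicate 4, at 13.97, was also low. Without replicate 2 the changes were -6.30 and -5.36.

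**Figure D2:**
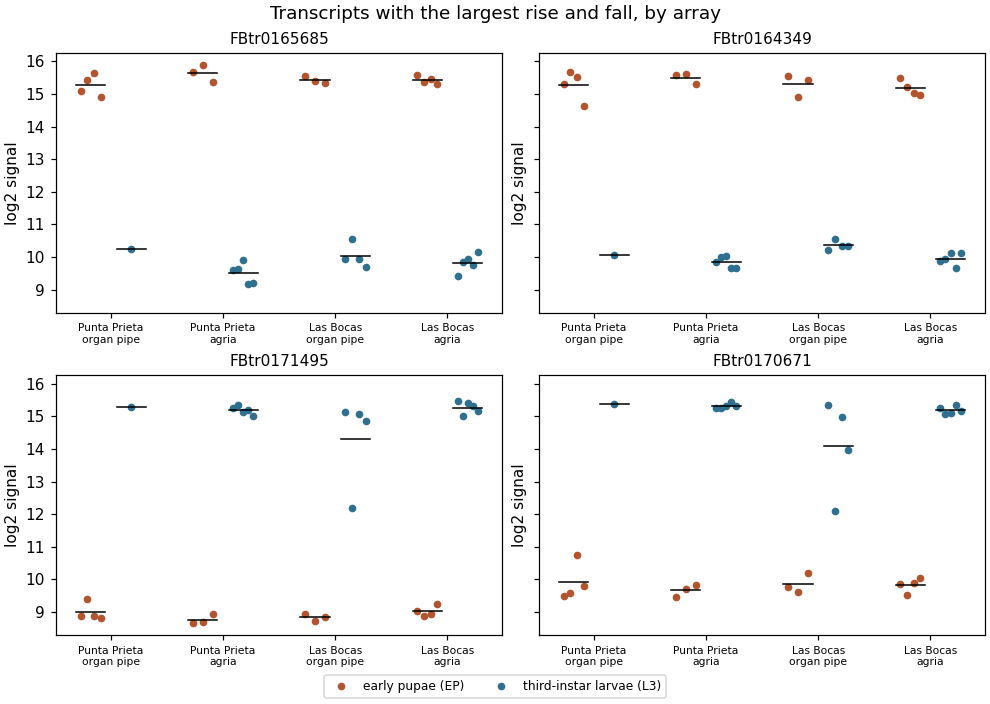
Log2 signal of the 2 transcripts with the largest rise (top) and the 2 with the largest fall (bottom) in each array, by series, with early pupae left of third-instar larvae and lines at the group means. No pupa overlaps any larva in the 4 panels, and 1 larval array of Las Bocas on organ pipe lies near 12 in both bottom panels.

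Both transcripts that fell were high again in adults. FBtr0171495 had stage means of 9.58 in eggs, 15.13 in second-instar larvae, 9.72 in late pupae, 12.48 in females of 0 days and 13.96 to 14.66 from 3 days on. FBtr0170671 had 10.03 in eggs, 15.13 in second-instar larvae, 12.04 in late pupae, 13.87 in females of 0 days and 14.87 to 15.23 from 3 days on. In late pupae both means were above the early pupal means of 8.90 for FBtr0171495 and 9.82 for FBtr0170671, and above the highest early pupal array of each.

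Full separation of the stages, with every pupa above every larva, was found for 138 of all 14528 transcripts (0.95%), and every pupa lay below every larva for 198 (1.36%). Of the 871 that rose 124 were so separated, and of the 754 that fell 190. Transcripts that moved from the lowest to the highest 25% of the array by mean rank numbered 19, and 36 moved the other way. The transcripts that fell came mostly from the bright end: 462 of 754 (61.3%) had a mean rank in the top 25% in larvae, against 22.5% of all transcripts, and 77 (10.2%) had one in early pupae. Of the 871 that rose, 499 (57.3%) had such a rank in early pupae, against 23.1% of all transcripts, and 108 (12.4%) in larvae. Both patterns are favoured by the choice of the lists from these same arrays. In the middle of the lists, the transcripts that rose had a median level of 12.65 in early pupae and 11.13 in larvae, and those that fell had 10.94 in early pupae and 12.82 in larvae.

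**Figure D3:**
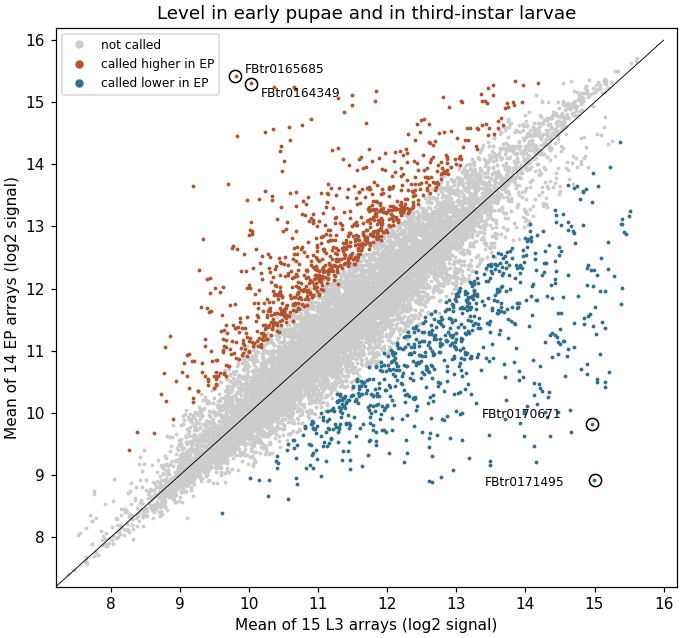
Mean log2 signal of each transcript in 14 arrays of early pupae (vertical) against 15 arrays of third-instar larvae (horizontal), with called transcripts in colour, the 4 named transcripts circled and the line of equal level. The transcripts that fell lie mostly at the bright end of the larval scale, which the choice of the list favours.

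Spread within groups followed the stage in which a transcript was high. For the 754 transcripts that fell, the median SD within groups was 0.368 in early pupae and 0.643 in larvae, and it was larger in larvae for 621 (82.4%). For the 871 that rose it was 0.556 in early pupae and 0.426 in larvae, and it was larger in larvae for 271 (31.1%). Over all transcripts the medians were 0.335 in early pupae and 0.377 in larvae, and the SD was larger in larvae for 62.8%. These are descriptions of the same arrays that chose the lists.

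The direction of change was shared by the series, and the median size ranged between them. Of the transcripts that rose, 858 of 871 (98.5%) had a positive change in all 4 series, and of those that fell 738 of 754 (97.9%) had a negative one, although a call over all series favours such sharing. Over all transcripts 23.8% had a positive change in all 4 series and 23.5% a negative one. A change of at least 1 log2 unit in each of the 4 series was found for 299 that rose (34.3%) and 294 that fell (39%). Over all transcripts 299 (2.06%) had such a rise, so all of these were on the list. Such falls were not counted over all transcripts. Among the transcripts that fell, the median change was -1.36 in Punta Prieta on organ pipe, -2.40 in Punta Prieta on agria, -0.94 in Las Bocas on organ pipe and -1.62 in Las Bocas on agria. Among those that rose it was 1.22, 1.54, 1.18 and 1.55 in the same order of series. The SD of the changes over all transcripts was likewise 0.721, 0.948, 0.619 and 0.794, and Pearson correlations across transcripts between the changes of any 2 series, which share no array, were 0.67 to 0.84, given as a description since transcripts are not independent. In both populations the organ pipe series thus had the smaller median changes. The fit that chose the lists held 17 arrays on agria and 12 on organ pipe, which favours transcripts with large changes on agria. The organ pipe series of Punta Prieta rests on 1 larval array, and that of Las Bocas holds the larvae that lay nearest to pupae.

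The 2 populations repeat the comparison in separate arrays. Fitted alone, the 13 arrays of Punta Prieta called 1011 transcripts higher (6.96%) and 1083 lower (7.45%) in early pupae, and the 16 arrays of Las Bocas called 875 higher (6.02%) and 526 lower (3.62%). Of the 875 higher in Las Bocas, 595 were also called higher in Punta Prieta, which is 58.9% of the Punta Prieta list and 68% of the Las Bocas list. Of the 526 lower in Las Bocas, 515 were also called lower in Punta Prieta, which is 47.6% and 97.9% of the lists in that order. No transcript was called in opposite directions (0 of either kind). For transcripts called lower in Las Bocas, the median change in Punta Prieta was -2.40, and for those called higher it was 1.28, against 0.06 over all transcripts.

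Whether the change at pupariation differed between populations was tested as the Punta Prieta change less the Las Bocas change, averaged over diets. No transcript passed, with 0 called by limma at an adjusted p under 0.05, 719 at an unadjusted p under 0.05 and a smallest adjusted p of 0.808. With the spread taken from all 172 arrays 7 passed. In the contrast of the agria series alone, with Las Bocas organ pipe arrays kept for the spread, 1 passed. Without replicate 1 of Las Bocas larvae on organ pipe, the larval array of that series farthest from the pupae, 6 passed. The 4 named transcripts had differences of 0.08, 0.36, -0.49 and -0.77 (SE 0.24, 0.23, 0.44 and 0.48), each within 2 SE of 0.

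Fitted by diet, the 12 arrays on organ pipe called 402 transcripts higher (2.77%) and 285 lower (1.96%) in early pupae, and the 17 arrays on agria called 1117 higher (7.69%) and 1011 lower (6.96%). These fits differ in their numbers of arrays, so the counts are no test of diet.

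The contrast for diet itself, the organ pipe change less the agria change averaged over populations, called 7 transcripts (0.0482%), 5 positive and 2 negative, with 1522 at an unadjusted p under 0.05. All 7 are also called in the comparison of stages, and each changed less on organ pipe than on agria in both populations: the 5 with a positive difference fell less and the 2 with a negative difference rose less. FBtr0162415 had a change of 0.28 in Punta Prieta on organ pipe, where it did not fall. The count is sensitive to single arrays. Of 28 arrays, 23 moved it by over 1.5 times when left out, between 2 without replicate 2 of Las Bocas pupae on organ pipe or replicate 1 of Punta Prieta pupae on agria, and 179 without replicate 1 of Las Bocas larvae on organ pipe. With replicate numbers as a block 0 were called, with 3 after a repeated quantile normalization and 257 with the spread taken from all 172 arrays.

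Among the transcripts that fell less on organ pipe, FBtr0161593 had the largest difference. In Punta Prieta on organ pipe it had 10.64, 10.05, 10.35 and 10.83 in the 4 pupal arrays and 10.77 in the 1 larval array, and in Punta Prieta on agria it had 10.11, 9.30 and 9.90 in pupae and 13.13 to 13.52 in larvae. In Las Bocas on organ pipe it had 10.24, 10.26 and 10.58 in pupae and 10.68 to 10.89 in larvae, and in Las Bocas on agria it had 9.40 to 10.23 in pupae and 10.53 to 12.65 in larvae. The larvae on agria were thus the high arrays, with Las Bocas replicate 4 as low as those on organ pipe. The change was -0.30 and -3.55 on organ pipe and agria in Punta Prieta and -0.41 and -2.07 in Las Bocas, a difference of 2.45 (SE 0.38, limma adjusted p = 0.00487). The call held without any one of 28 arrays (2.33 to 2.62). Neither population alone gave it (limma adjusted p = 0.255 in Las Bocas), and Punta Prieta has 1 larval array on organ pipe. For this contrast, alone means without the organ pipe series of the other population, whose agria arrays still enter the estimate of spread. FBtr0162415 differed by 2.19 (SE 0.38, limma adjusted p = 0.0238), with larvae of 8.88 on organ pipe and 11.71 to 13.28 on agria in Punta Prieta. In Las Bocas its larvae overlapped, with 9.09 to 10.19 on organ pipe and 9.48 to 11.04 on agria. Its difference was 3.82 in Punta Prieta alone, with 1 larval array on organ pipe, and 0.56 in Las Bocas alone, where it was not called. Its call over both populations was lost without replicate 1 of Punta Prieta pupae on agria (limma adjusted p = 0.052). It was also lost without replicate 2 of Las Bocas pupae on organ pipe (limma adjusted p = 0.0544). By mean level FBtr0162415 was among the dimmest 25% of transcripts, so the setting without these left it out.

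The 2 transcripts that rose less on organ pipe differed in the pupae. FBtr0171715 had 9.79 to 11.62 in the 7 pupae on organ pipe and 11.71 to 13.38 in the 7 pupae on agria, without overlap, and larvae of both diets lay between 8.85 and 10.11. Its difference was -2.19 (SE 0.42, limma adjusted p = 0.0439), with changes of 0.99 and 3.20 on organ pipe and agria in Punta Prieta and 0.85 and 3.03 in Las Bocas, and neither population alone gave the call (adjusted p = 0.339 in Punta Prieta and 0.202 in Las Bocas). FBtr0175557 had 12.49, 12.72, 13.10 and 13.61 in Punta Prieta pupae on organ pipe and 14.38, 13.41 and 13.52 in those on agria. In Las Bocas pupae it had 9.95, 11.54 and 12.16 on organ pipe and 13.60 to 14.32 on agria, against 9.78 to 10.30 in all larvae. Its difference was -1.89 (SE 0.37, limma adjusted p = 0.0466). It was -0.86 in Punta Prieta alone (limma adjusted p = 0.718) and -2.92 in Las Bocas alone, where the call held (limma adjusted p = 0.0123). Its level of 9.95 in replicate 1 of Las Bocas pupae on organ pipe was within the larval range, and without that array the difference was -1.57 (limma adjusted p = 0.0199). Both calls were lost under many omissions of 1 array, 18 of 28 for FBtr0171715 and 19 of 28 for FBtr0175557, with adjusted p up to 0.122. Both were also lost with 2 other scalings: repeated quantile normalization (limma adjusted p = 0.0725 for FBtr0171715 and 0.0921 for FBtr0175557) and centring on array medians (0.0552 for each).

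**Figure D4:**
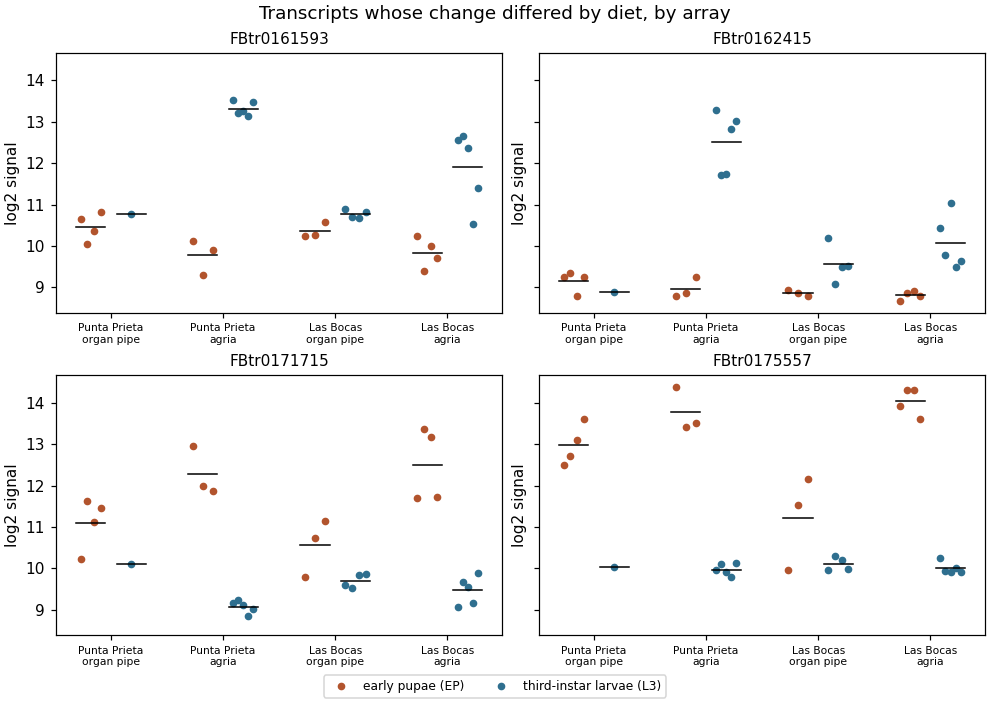
Log2 signal in each array of 4 transcripts whose change from third-instar larvae to early pupae differed by diet, by series, with early pupae left of third-instar larvae and lines at the group means. In the top panels the larvae of Punta Prieta are high on agria, while in Las Bocas the ranges of the larvae of both diets overlap. In the bottom panels the mean of the pupae is lower on organ pipe in both populations.

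Diet was also compared in how far arrays lay along the line between the stages, a comparison chosen after the positions had been seen. So that both diets were measured on the same line, each array was placed between the larval and pupal means of the other population. Pupae of Punta Prieta had 0.881, 1.093, 0.857 and 0.831 on organ pipe and 1.164, 1.05 and 1.095 on agria. Pupae of Las Bocas had 0.766, 0.892 and 1.004 on organ pipe and 0.999, 1.1, 1.113 and 0.976 on agria. In each population every pupa on organ pipe lay below the mean of the pupae on agria, 7 of 7 in all, and the mean difference was -0.174 (exact two-sided permutation of diet within population, p = 0.0098, adjusted p = 0.0196 over both stages, n = 7 and 7). In each population 1 organ pipe array lay within the range of the agria arrays. The SD of an array's signals was 1.37 to 1.5 in pupae on organ pipe and 1.42 to 1.51 in those on agria, and after all arrays were scaled to 1 SD the difference was -0.156 (exact permutation, adjusted p = 0.0212). Without replicate 1 of Las Bocas pupae on organ pipe it was -0.147 and no longer passed (exact permutation, adjusted p = 0.0533). In third-instar larvae the difference was 0.0894 (exact permutation p = 0.196, n = 5 on organ pipe and 10 on agria), with 4 of 5 organ pipe arrays above their population's mean on agria, and it did not pass. Without replicate 1 of Las Bocas larvae on agria it was 0.048. On the line of the other 3 series the larval difference was 0.145 (exact permutation, adjusted p = 0.0225). There an organ pipe array is placed by more agria than organ pipe series, and an agria array by the reverse. The diets are then not on the same line, so that value is no test of diet.

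The lists were then followed into stages whose arrays had no part in choosing them. Late pupae (LP, 11 arrays) against second-instar larvae (L2, 16 arrays) span a longer passage from larva to pupa, in separate arrays. The late pupal arrays are spread unevenly over the series. On the line between L3 and EP they had positions of 0.48 to 0.908, and second-instar larvae had -0.136 to 0.327. In that comparison 9.81% of all transcripts were called higher and 10.2% lower in late pupae. Of the 871 that rose at pupariation, 371 (42.6%) were called higher in late pupae than in second-instar larvae and 30 (3.44%) lower, with a median change of 0.81 against -0.04 over all transcripts. Of the 754 that fell, 516 (68.4%) were called lower and 12 (1.59%) higher, with a median change of -1.72. The 371 are 26% of all transcripts called higher there, and the 516 are 34.9% of those called lower.

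The share grew with the size of the fall. It was 57.9% of the 520 transcripts that fell by 1 to 2 log2 units, 88.8% of the 143 that fell by 2 to 3 and 96.7% of the 91 that fell by at least 3. For the transcripts that rose it was 39.8% of 722, 58.9% of 112 and 48.6% of 37 in the same classes. Among the 37 with the largest rises, the median stage mean was 14.39 in early pupae, 11.65 in late pupae and 10.67 in second-instar larvae, with a range of 9.47 to 14.15 in late pupae. The early pupal mean was the highest of 13 stages for 30 of these 37, a count that the choice of the list favours.

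Females of 6 days (6D, 14 arrays) against late pupae set feeding adults beside pupae that do not feed. The late pupal arrays are shared with the previous comparison. Of all transcripts 26.4% were called higher and 21.9% lower in 6-day females. Of the 754 that fell at pupariation, 365 (48.4%) were called higher in 6-day females than in late pupae and 100 (13.3%) lower, with a median change of 0.90 against 0.13 over all transcripts. Of the 871 that rose, 101 (11.6%) were higher and 362 (41.6%) lower, with a median change of -0.51.

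Eggs of 6 hours (E6, 16 arrays) against first-instar larvae (L1, 14 arrays) called 28.3% of all transcripts higher and 29.6% lower in eggs. Of the 871 that rose at pupariation, 289 (33.2%) were higher and 283 (32.5%) lower in eggs, both near the share of all transcripts. Of the 754 that fell, 65 (8.62%) were higher and 503 (66.7%) lower in eggs.

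Over the 13 stages, the median level of the transcripts that fell was 10.18 in eggs, 12.03, 13.16 and 12.82 in the 3 larval instars, 10.94 and 11.13 in early and late pupae, 12.45 in females of 0 days, 12.87 at 3 days and 11.91 to 12.61 at later ages. For 309 of the 754 (41%) the highest stage mean was that of second-instar larvae, against 3.39% of all transcripts, and for 168 (22.3%) it was that of 3-day females, against 5.73%. Third-instar larvae, one of the stages that chose the list, had the highest mean for 61. The median level of the transcripts that rose was between 10.87 and 11.31 in eggs and larvae, 12.65 in early pupae, 12.30 in late pupae, 11.83 in females of 0 days and 11.04 to 11.55 later. For 237 of the 871 (27.2%) the highest stage mean was that of late pupae, against 14.2% of all transcripts, and for 184 (21.1%) that of eggs, against 27.5%. The levels in third-instar larvae and early pupae follow from the choice of the lists.

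**Figure D5:**
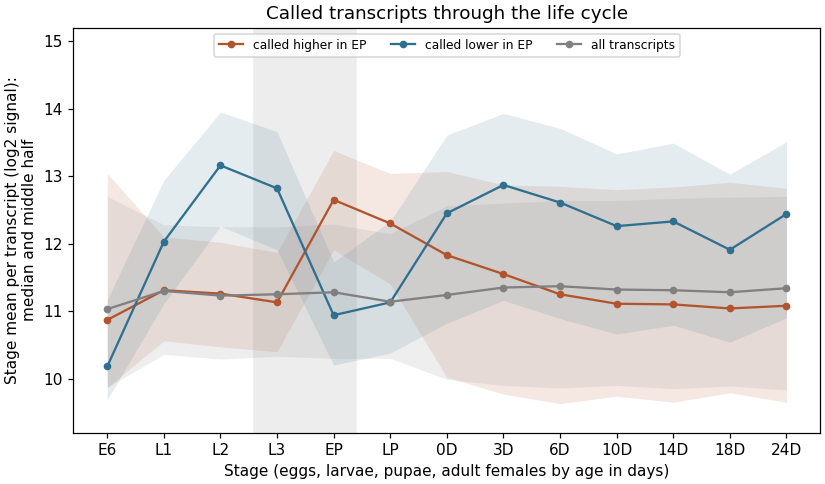
Median over transcripts of the stage mean (lines, with the range between quartiles shaded) from 6-hour eggs (E6) through larvae (L1, L2, L3) and pupae (EP, LP) to adult females of 0 to 24 days, for transcripts called higher or lower at pupariation and for all transcripts. The grey bar marks the 2 stages that chose the lists. The transcripts that fell are low in eggs and both pupal stages and high in larvae and adults.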

How the data were processed

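Total RNA became double-stranded cDNA carrying Cy3, hybridised to single-colour NimbleGen arrays, per the labels' protocols. The values used are the log2 signals the authors deposited, and RMA is the tool named in the submitters' processing notes. Which arrays RMA covered, and with what software, is not given in the sources used here. Precision is limited by the number of arrays.

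Stage changes were fitted to the 29 arrays with lmFit and eBayes of limma 3.58.1 (R 4.3.3), with the 4 series as a block and 24 residual degrees of freedom, and p-values were adjusted by Benjamini-Hochberg over all 14528 transcripts. Calls needed an adjusted p under 0.05 and a change of at least 1. Diet and population contrasts used 1 mean for each of 8 groups, with no minimum change, and the lone larval array of Punta Prieta on organ pipe was assumed to vary like the other groups. Members, lists and tests were chosen with earlier results of these data known. The rule for names took the 2 largest rises and falls, the widest gap in each direction, and the 2 most positive and most negative called differences of the diet and population contrasts. Gene lists by name could not be run. Alternatives were other normalizations, a filter on dim transcripts, other weights and sources of spread, replicate numbers as a block, and omission of single arrays or of a series. The stage fit and the diet contrast were tried on simulated data with independent normal errors, and the position on a constructed array. The other steps were not tried in this way. Separate cultures or animals are not stated for the replicates, and the p-values therefore reflect only how these samples vary, perhaps for technical reasons. In 1 larval array of Punta Prieta on agria, the title gives replicate 2 and the description replicate 3, and the title was used.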

Additional observations from a re-analysis of the deposited data

Results flagged for a closer look

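The 4 named transcripts whose change differed by diet were picked as the most positive and most negative among those the diet contrast called. Passing that test is therefore no separate support for them. Their differences were 2.45 for FBtr0161593, 2.19 for FBtr0162415, -2.19 for FBtr0171715 and -1.89 for FBtr0175557, each as organ pipe minus agria on the log2 scale. All 4 calls were lost with replicate numbers as a block. The lone larval array of Punta Prieta on organ pipe enters all 4.

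In groups of 4 or 5 arrays, 45 sets of values were searched for 1 array far from the others, and 3 were found. The rule flags about 1 in 20 by chance in independent sets, but these sets share arrays, so the count was not tested against that rate. Replicate 2 of Las Bocas larvae on organ pipe had 12.20 for FBtr0171495, against 14.86 for the next array of its group. Replicate 2 of Punta Prieta pupae on organ pipe had 9.41 for the same transcript, against 8.89 for the next. That pupal array also had a position of 1.035 between the stages, against 0.867 for the next, which puts it nearer to pupae on agria than the rest of its group.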

How the results depend on the processing

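The counts at pupariation were within 1.5 times of 871 higher and 754 lower under 10 of 11 settings, the exception being the test against a change of 1 log2 unit (254 and 323). Leaving out 1 array gave 806 to 986 higher and 714 to 807 lower. Centring on array medians gave 836 higher and 776 lower, and array SD as a covariate gave 832 and 823. No scaling moved the median of all transcripts by over 0.1. Without the Las Bocas organ pipe series, a setting chosen after seeing the data, 1024 and 930 were called. With replicate numbers as a block 856 and 744 were called, 823 and 719 of them shared with the unblocked calls. Same-numbered pupae and larvae of a series had a mean correlation of deviations of -0.0218 over 10 pairs (-0.437 to 0.325, 3 over 0.1). Of 10 pupae, 2 were closest to their own number. So few pairs cannot decide whether same-numbered samples share a source, which the labels do not state. The 4 named transcripts kept sign and call in all 11 settings and without any one array.

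The count by population was 7 with the spread of all 172 arrays, 1 without the Punta Prieta organ pipe series and 0 to 6 without 1 array. The count by diet was 3 after quantile normalization, 11 without the dimmest 25% of transcripts, 257 with the spread of all 172 arrays, 0 with the replicate block, 1 without the Punta Prieta and 3 without the Las Bocas organ pipe series, and 2 to 179 without 1 array. With the replicate block the 4 transcripts named by diet lost their calls (limma adjusted p = 0.103 to 0.207), and the 4 named for the stage change kept theirs. FBtr0171715 and FBtr0175557 also lost theirs after quantile normalization (0.0725 and 0.0921) and after centring (0.0552 each). In the contrast of Las Bocas alone FBtr0175557 kept its diet call. In that of Punta Prieta, which has 1 larval array on organ pipe, FBtr0162415 differed by 3.82. Both contrasts still took part of their spread from the agria arrays of the other population. Array weights gave 2349 by population and 1925 by diet, but their estimation stopped before converging, with weights of 0.102 to 53.3, in these fits with a group of 1 array. The lone larval array cannot be left out of these contrasts.

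Counts of shared transcripts stayed within 1.5 times under all 4 settings and without any one of the arrays left out in turn. Between populations only Punta Prieta arrays were left out, which gave 547 to 633 and 511 to 515. Elsewhere only arrays of the stages outside L3 and EP were left out, with the lists from pupariation kept fixed. That gave 349 to 415 and 502 to 530 for late pupae against second-instar larvae. It gave 281 to 296 for eggs and 356 to 368 for 6-day females. The position difference by diet was -0.127 to -0.222 in early pupae under 4 other settings and -0.202 to -0.147 without 1 array. In larvae it was 0.048 to 0.115 without 1 array. The -0.222 in pupae, and 0.145 in larvae (exact permutation, adjusted p = 0.0225), came from the line of the other 3 series. On that setting the diets are not measured on the same line.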
